A study of Mus musculus with 10 samples.

Results

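Quiescent hepatic stellate cells (qHSCs), the resting vitamin A-storing cells of the liver, were described from the libraries that the labels name qHSC 1 to qHSC 5, which are 5 of the 10 libraries of the series. All 5 came from livers of C57BL/6J mice kept on the standard diet with no other treatment named, aged 36 weeks for qHSC 1, 2 and 5 and 34 weeks for qHSC 3 and 4. Of the 62322 entries of the expression table, the 25233 with a gene symbol were taken, and 18050 of them had a read in at least 1 qHSC library. According to the methods of the study the mice were males, some of them former breeders. The liver was digested in place with enzymes, cells of low density were taken from a gradient, cells with the blue fluorescence of retinoids were sorted, and only preparations with RNA of sufficient quality were sequenced. The labels do not name the mouse or the day behind a library, so n counts preparations, p-values measure the spread between preparations, and age cannot be told apart from mouse and day.

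Stellate cells lie between hepatocytes and the sinusoidal endothelium. In the healthy liver they take up retinol, esterify it and keep it in lipid droplets, and they secrete growth factors and matrix components. After injury they lose the droplets, take on contractile fibres and produce fibrillar collagen. Their neighbours in the sinusoid are Kupffer cells, the resident macrophages of the liver, as well as endothelial cells and blood cells.

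RNA sequencing gave 35640104 to 47317028 reads on genes with a symbol per library. Values are normalized counts, that is reads divided by the size factor of the library, which was 1.10 to 1.33. A library detected 15703 to 16211 genes, its 10 most counted genes held 17.9% to 22.1% of the reads, and mitochondrial entries held 1.25% to 1.61%. Where 5 values stand in a row, they belong to qHSC 1, 2, 3, 4 and 5 in this order. The SD of a gene is that of log2(normalized count + 1) over the 5 libraries, and a gene was called variable when it reached 1. Certain libraries stood apart: qHSC 1 and qHSC 4 were high in macrophage transcripts, and qHSC 3 was high in interferon-inducible and chemokine genes and low in heat shock genes.

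The 3 marker genes of stellate cells were abundant in all 5 libraries. *Dcn* (mm39 chromosome 10, 97315362 to 97354017) encodes the matrix proteoglycan decorin and had 666183, 796986, 549749, 621412 and 740280.1 normalized counts. Its mean was 1576 ± 180.2 FPKM (fragments per kilobase of exon at a common library size; SD, n = 5), rank 21 of all genes. *Lrat* (chromosome 3, 82799887 to 82811286) encodes the acyltransferase that esterifies retinol for storage and had 112341, 114853, 90181, 74761 and 136938 normalized counts, with a mean of 599 ± 113 FPKM and rank 46. *Colec10* (chromosome 15, 54274166 to 54329754) encodes a secreted collectin and had 39942, 52449, 25641, 37958 and 33515 normalized counts, with a mean of 252 ± 63.7 FPKM and rank 136. The length used for FPKM is that of all annotated exons of a gene together, so FPKM and rank depend on the annotation. In the paper's own FPKM of qHSCs, *Dcn* ranks higher and *Lrat* lower than here. The highest library exceeded the lowest 1.45-fold for *Dcn*, 1.83-fold for *Lrat* and 2.05-fold for *Colec10*. *Dcn* and *Lrat* were lower in both libraries at 34 weeks than in all 3 at 36 weeks, whereas the ages overlapped for *Colec10*.

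The 20 genes with the highest mean FPKM combined widely expressed transcripts with secreted products. *Malat1*, a nuclear long non-coding RNA, took the largest share of the reads among them, 5.28% on average, and had a mean of 6689 ± 1542 FPKM. *Ubb*, which encodes ubiquitin, took 4.01% of the reads. *B2m*, the light chain of MHC class I, took 2.07%. Several of the secreted products were lowest in qHSC 3. *Ecm1*, a secreted matrix protein, had 737489.5, 887675, 419223, 812836 and 911809.6 normalized counts and a mean of 5726 ± 1338 FPKM. *Fcna*, the lectin ficolin A, had 238302, 251353, 167502, 238123 and 290236 normalized counts and a mean of 4014 ± 575 FPKM. *Colec11*, the lectin collectin 11, had 180817, 186696, 137229.5, 188568 and 221316 normalized counts and a mean of 2513 ± 298 FPKM. All 3 were lowest in qHSC 3. *Apoe*, the lipid carrier apolipoprotein E, had 260177, 318068, 222192, 153995 and 582005 normalized counts, the widest spread relative to the mean among the 20, with qHSC 5 highest and qHSC 4 lowest.

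**Figure D1:**
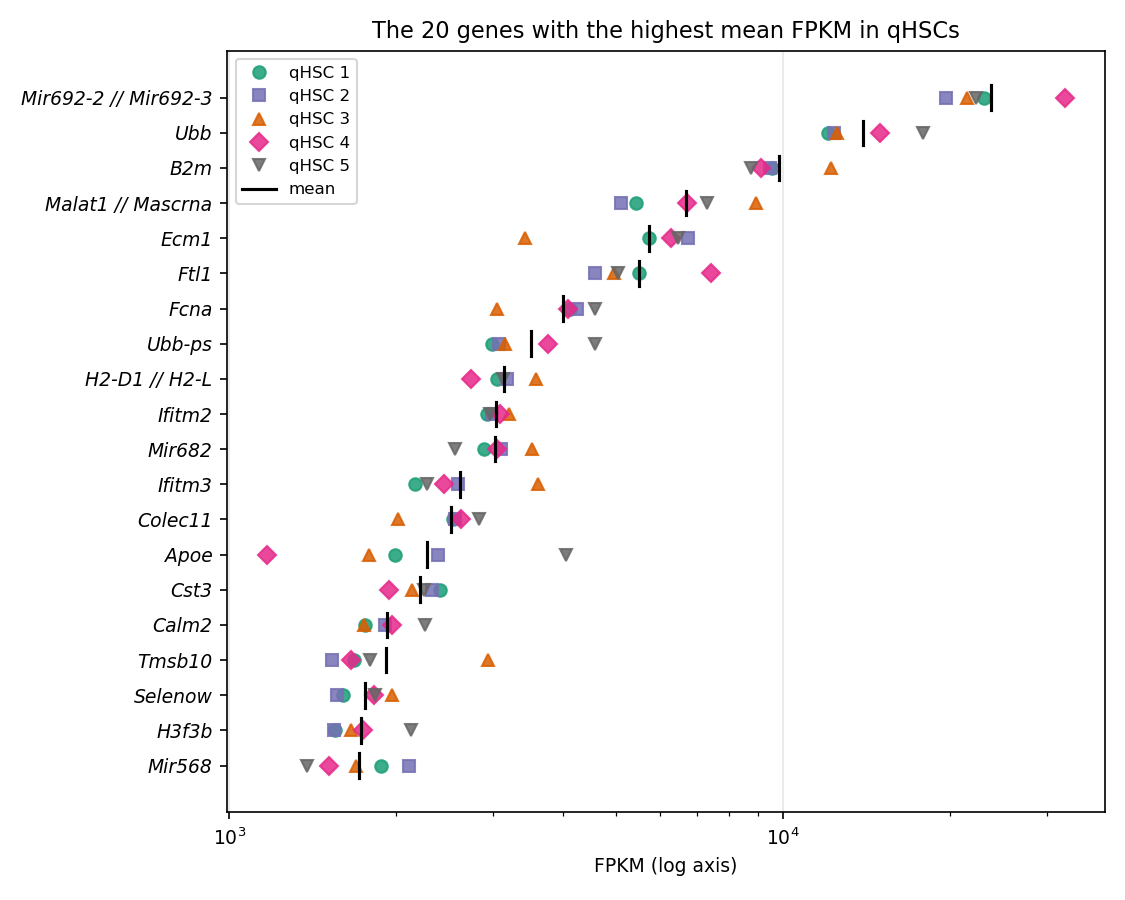
FPKM (log axis) of the 20 genes with the highest mean in qHSCs, with 1 marker per library and a black bar at the mean of 5 libraries. *Ecm1*, *Fcna* and *Colec11* have their lowest library in qHSC 3, and *Apoe* runs from 1170.3 in qHSC 4 to 4055 in qHSC 5.

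Some of these 20 rows may not stand for a gene of their own. *Ubb-ps*, a processed copy of *Ubb*, had 8.41% to 8.69% of the counts of *Ubb* in every library. The row of *Mir692-2* and *Mir692-3* had 34.1% to 36.0% of the counts of *Ftl1*, the ferritin light chain. The *Mir682* and *Mir568* rows lie wholly within exons of longer annotated genes, and *H2-D1* and *H2-L*, heavy chains of MHC class I, share 1 row. The remaining rows were *Ifitm2* and *Ifitm3*, membrane proteins that interferons induce, *Cst3*, a secreted protease inhibitor, *Calm2*, calmodulin, *Tmsb10*, an actin-binding peptide, *Selenow*, a selenoprotein, and *H3f3b*, a histone. *Tmsb10* had 76116, 71290.3, 126756, 75890.1 and 89478 normalized counts, and qHSC 3 was the high library. When genes were ranked by normalized count in place of FPKM, 11 of the 20 were still in the top 20.

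Few of the 30 quiescent stellate cell genes were variable, as was the case among all genes whose mean reached 100. All 30 passed the filter of a mean of 10 normalized counts or more, and 1 was variable, against 14.3% of the 14561 genes tested. The median SD of the list was 0.31 and that of all genes tested 0.34. All 30 also reached a mean of 100, and among the 10352 genes that did so 3.76% were variable and the median SD was 0.26. Among the 4096 genes whose mean reached 1000, 94 were variable and the median SD was 0.21, below that of the list. *Des*, an intermediate filament protein, had 2694, 3169, 2737, 2381 and 2755 normalized counts and an SD of 0.15. *Gfap*, another intermediate filament protein, had 638, 741, 402, 685 and 812, with qHSC 3 lowest. Growth factor and receptor genes belong to the list as well. *Gdf2*, which encodes the ligand BMP9, had 73863, 92598, 56567, 55591 and 63874 normalized counts. *Hgf*, the hepatocyte growth factor, had 32006, 36851, 19283, 28672 and 27413. *Pdgfrb*, the receptor of platelet-derived growth factor, had 3142, 3863, 2947, 2090.4 and 1997. For *Gdf2* qHSC 2 was high and the 34-week libraries were low.

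In several surface and matrix genes of the list qHSC 2 was highest and qHSC 3 lowest. *Steap4*, a metalloreductase, had 67643, 94769, 58260.2, 80512 and 83280.1 normalized counts, with qHSC 3 lowest. *Rgs5*, a regulator of G protein signalling that pericytes express, had 137594, 146733, 96216, 129940.4 and 125606, again with qHSC 3 lowest. *Reln*, a secreted glycoprotein, had 53321, 65346, 34308, 36709.8 and 35800.1. *Prelp*, a small proteoglycan, had 133305, 153016, 73531, 74399 and 78351, so that qHSC 1 and 2 were high and the other three were alike. The variable member was *Vipr1*, a receptor for vasoactive intestinal peptide, with 396, 577, 89.8, 189 and 94.4 normalized counts, high in qHSC 1 and 2. *Abcc9*, a subunit of ATP-sensitive potassium channels, had 28135, 37848, 15557, 19813 and 18074, in the same order of libraries as *Vipr1*.

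Of the 30 genes, 18 were highest in qHSC 2, against 24.4% of all genes tested, and 17 were lowest in qHSC 3, against 23.9%. The summed level of the list was 2611774, 3035562, 1838939, 2498658 and 2881770.4 normalized counts, with qHSC 2 highest and qHSC 3 lowest. In these bulk libraries, fewer cells of a type and less RNA per cell cannot be told apart. The list was high where the macrophage genes described below were low, in qHSC 2, but qHSC 3 was low in both, and the part of other cells in this order was not tested.

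Genes that mark stellate cells around the central vein varied between preparations without reaching an SD of 1. Of 7 genes 0 were variable, against 14.3% of all genes tested, and their median SD was 0.43 against 0.34. *Cxcl12*, a chemokine of stromal cells, had 136467, 156911, 74737, 91234 and 114716 normalized counts. *Rspo3*, which amplifies Wnt signals, had 8194, 10156, 5604, 5766 and 12298. *Adamtsl2*, a secreted protein of microfibrils, had 6078, 6847, 4296, 2094 and 2569. *Cxcl12* and *Rspo3* were higher in each library at 36 weeks than in both at 34 weeks, and *Adamtsl2* was lowest in qHSC 4 and 5. Of 6 genes of stellate cells around the portal vein, 5 were highest in qHSC 2, against 24.4% of all genes tested. Among them 1, *Vipr1*, was variable (1 or 2 when a library was left out), against 14.3% of all genes tested. That share was 3.76% among genes whose mean reached 100, as all members of both lists did. *Itgb3*, integrin beta 3, had 202, 746, 134, 291 and 312 normalized counts. *Tgfbi*, a secreted matrix protein, had 68439.8, 74382, 49928, 43109.5 and 49528. *Ngfr*, the low-affinity neurotrophin receptor, had 8318, 9201, 7799, 6809 and 7675. qHSC 2 was highest for these 3, by a wide margin only for *Itgb3*.

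Of 29 retinoid genes 25 passed the filter, and 5 of them were variable, against 14.3% of all genes tested. With a mean of at least 100 it was 0 of 18. The median SD of the list was 0.50. *Lrat* is given above. *Aldh1a1*, a retinaldehyde dehydrogenase, had 21217, 24169, 19359.7, 15114 and 21707 normalized counts in a row shared with *E030003E18Rik*. *Plin2*, which coats lipid droplets, had 15982, 15708, 13019.6, 17521 and 19616. *Bco1*, which cleaves beta-carotene, had 6483, 7485, 5684, 5268 and 6583. The variable members *Stra6l*, *Cyp26a1*, *Cyp26b1*, *Bco2* and *Rxrg* all had low counts. *Rxrg*, a retinoid X receptor, had 27.1, 52.8, 0, 0 and 0. *Bco2*, a carotenoid-cleaving enzyme, had 101, 22.1, 24.4, 182 and 24, high in qHSC 4 and 1. *Aldh1a2*, *Crabp1*, *Crabp2* and *Stra6*, the retinol uptake receptor, did not pass the filter.

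Some genes that retinoic acid is known to induce had their highest value in qHSC 5. *Dhrs3*, which reduces retinaldehyde back to retinol, had 9235, 10055, 12245, 8122 and 28652 normalized counts. *Rarb*, the retinoic acid receptor beta, had 969, 709.8, 870.0, 564 and 1842. *Cyp26a1*, which degrades retinoic acid, had 25.3, 11.1, 13.4, 6.85 and 74.9. For each, qHSC 5 lay above the other libraries, which covered 8122 to 12245 for *Dhrs3*, 564 to 969 for *Rarb* and 6.85 to 25.3 for *Cyp26a1*. *Lrat* was highest in qHSC 5 too. These genes were singled out after their values had been seen. Of the 25 retinoid genes, 8 were highest in qHSC 5, against 24.3% of all genes tested, and 8 in qHSC 2.

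The promoters of *Rarb* and *Cyp26a1* are shown because both hold the classical retinoic acid response element, a direct repeat with a spacer of 5 bases, searched by this name on both strands. It was found in 2 of the 19 tested retinoid genes that have a promoter in RefSeq, not in *Lrat* or *Dhrs3*. Of all 27025 genes with a promoter, 0.115% held it. Each promoter spans 250 bases before and 50 after the start. The stretches come from RefSeq (GRCm38.p6, whereas the counts use mm39) and run 5′ to 3′ on the strand of the gene, wholly before its start, with the element in capitals. That of *Rarb* lies at chr14:16575477-16575569, minus strand, and that of *Cyp26a1* at chr19:37697736-37697807, plus strand.
Rarb: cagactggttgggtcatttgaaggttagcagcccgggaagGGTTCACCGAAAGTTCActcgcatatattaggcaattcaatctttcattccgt
Cyp26a1: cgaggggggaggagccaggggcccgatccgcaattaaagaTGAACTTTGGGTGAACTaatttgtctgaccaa
A match describes the letters, and binding was not measured.

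Most genes were stable between preparations. The median SD was 0.34 over the 14561 genes tested, 0.26 over the 10352 genes whose mean reached 100 normalized counts and 0.21 over the 4096 whose mean reached 1000. Of all genes tested 2079 (14.3%) were variable, but only 389 (3.76%) of those whose mean reached 100. Under edgeR, the common biological coefficient of variation of the 5 libraries was 0.431, and the median over genes was 0.291. Pairs of libraries correlated with Pearson's r between 0.899 (qHSC 2 and 4) and 0.941 (qHSC 3 and 5) on the log2 scale, across genes, which are not independent replicates. The counts of no pair agreed within sampling noise, with a chi-square per gene of at least 87.1, so no library was a copy of another. This covers counting error only and does not show that the libraries came from separate mice.

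**Figure D2:**
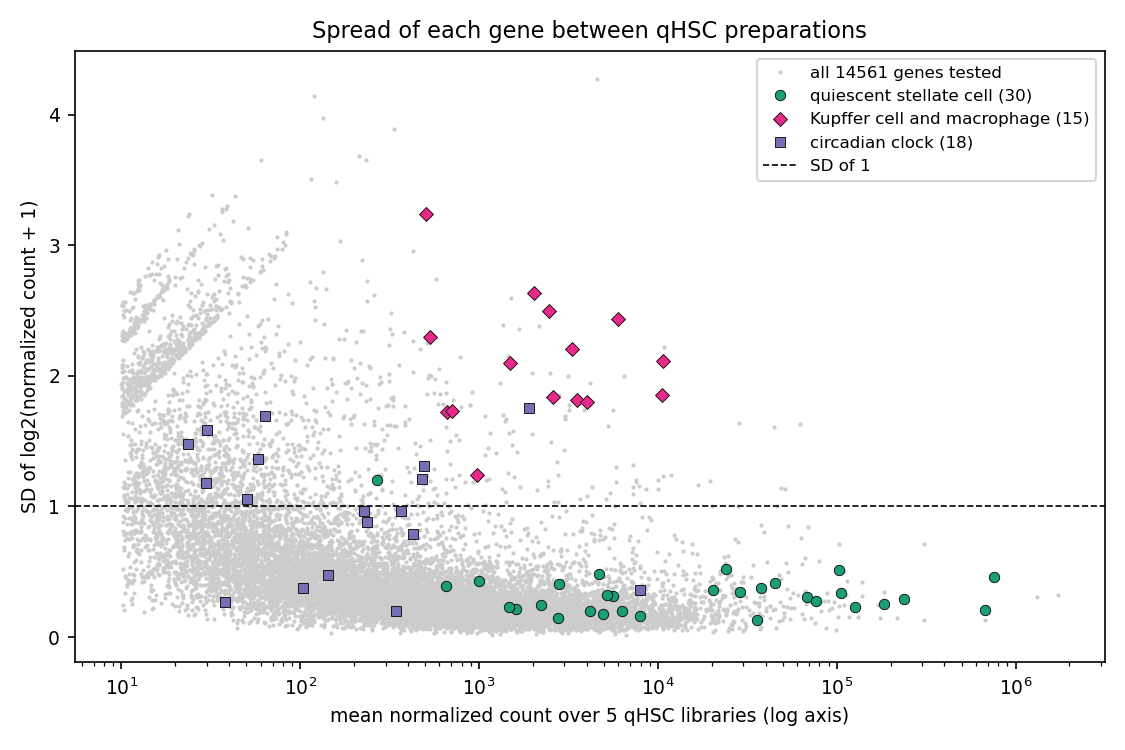
SD of log2(normalized count + 1) over 5 qHSC libraries against the mean normalized count (log axis) for the 14561 genes tested, with 3 gene lists marked. All 15 macrophage genes lie above the line at an SD of 1, as do 9 of 18 clock genes, and 29 of the 30 quiescent stellate cell genes lie below it.

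The smallest SDs at a mean of 1000 or more were within a few hundredths of 0. *Cct5*, a subunit of the chaperonin that folds actin and tubulin, had 6575, 6596, 6791, 6667 and 6606 normalized counts and an SD of 0.02. *Polr2e*, a subunit of the RNA polymerases, had 1212, 1182, 1184, 1168 and 1194. *Psma1*, a subunit of the proteasome, had 5593, 5806, 5747, 5713 and 5778. For these the 5 libraries were nearly level. *Fkbp3*, *Slc35b1*, *Ftsj3*, *Bud23*, *Tmem106a* and *Tram1* were also among the 10 most even genes, with SDs of up to 0.04. *Ddx3y*, a Y-linked helicase gene, had 4618, 4405, 4311, 4869.7 and 5138 normalized counts. *Xist*, the RNA that coats the inactive X chromosome of females, had at most 8.15 normalized counts in any library.

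Every gene of the Kupffer cell and macrophage list was variable, 15 of 15 against 14.3% of all genes tested. All 15 were highest in qHSC 4, against 16.1% of all genes tested, and second in qHSC 1, and 12 were lowest in qHSC 2. The summed level of the list was 67931, 5934, 11961, 153723 and 10808 normalized counts, so that the highest library had 25.9 times the lowest, and the list took 0.0180% of the reads of qHSC 2 and 0.473% of those of qHSC 4. *Clec4f*, a lectin of Kupffer cells in the mouse, had 9029, 632, 466, 18766 and 869.9 normalized counts. *Vsig4*, a complement receptor of the same cells, had 2957, 141, 131, 6669 and 273. *Timd4*, a phosphatidylserine receptor of resident macrophages, had 701, 5.96, 34.6, 1719.9 and 61.4. qHSC 4 and 1 lay at least 10-fold above the other three in each of the 3 genes.

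In general macrophage genes too, qHSC 4 was highest and qHSC 1 second. *C1qb*, a chain of complement C1q, had 14903, 1227, 1938, 33640.5 and 1955 normalized counts. *Lyz2*, lysozyme, had 13946, 1264, 4013, 30968 and 2739. *Adgre1*, which encodes F4/80, had 882, 68.2, 67.7, 1579.6 and 60.7. None of the 15 genes was at 0 in any library. From the lowest to the highest library the 15 genes differed 8.47-fold (*Ptprc*, a surface molecule of all white blood cells) to 289-fold (*Timd4*). Between qHSC 1 and qHSC 4 they differed 1.33-fold (*Csf1r*, the receptor of the macrophage growth factor) to 2.89-fold (*Fcer1g*, a chain of Fc receptors), with a median of 2.26. When qHSC 1 and qHSC 4 were left out, a choice made after the data had been seen, 2 of the 15 were variable.

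**Figure D3:**
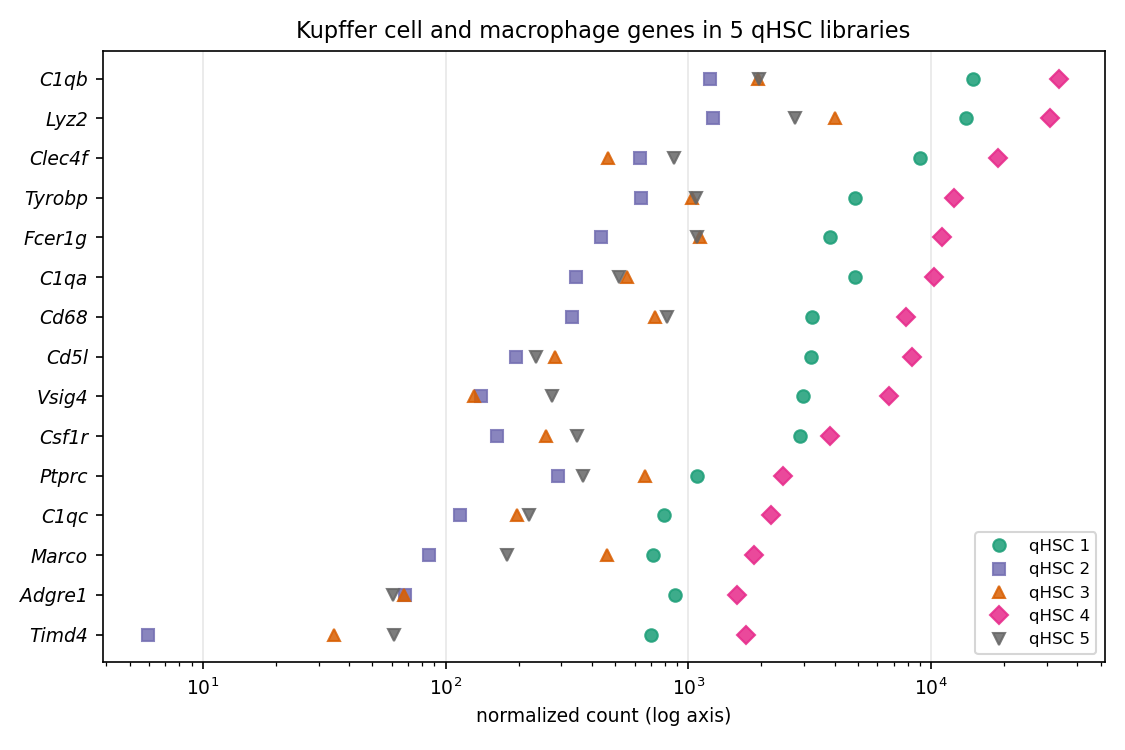
Normalized counts (log axis) of the 15 genes of the Kupffer cell and macrophage list, with 1 marker per qHSC library. In each row qHSC 4 is rightmost and qHSC 1 second, and qHSC 2, 3 and 5 lie to the left of both.

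Much of the spread of the abundant genes had this order. Of the 389 variable genes whose mean reached 100, 254 (65.3%) had qHSC 1 and qHSC 4 as their 2 highest libraries, against 9.05% of all genes with such a mean. Of the same 389, 226 (58.1%) were lowest in qHSC 2, against 16.2%. The first principal component of the genes whose mean reached 100 held 46.3% of the variance, with qHSC 4 and qHSC 1 at one end (44.3 and 22.5) and qHSC 2 at the other (-37.4). Without qHSC 1 and qHSC 4, the number of variable genes over all tested was 1746, against 2079 with all 5 libraries.

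The 20 genes with the largest SD at a mean of 100 or more included genes of antibody-producing cells. *Jchain*, the joining chain of secreted antibodies, had 11927, 50.3, 18.9, 8476 and 2274 normalized counts and the largest SD, 4.28. *Mzb1*, a chaperone of antibody-secreting cells, had 281, 25.6, 0, 411 and 77.9. *Bank1*, a B cell scaffold protein, had 359, 17, 4.72, 673 and 53.2. qHSC 1 and 4 were high in all 3, and qHSC 5 was intermediate for *Jchain*. Receptors of myeloid and dendritic cells were among the 20 as well. *C5ar1*, the anaphylatoxin receptor, had 449, 0, 53.5, 539.9 and 27.7 normalized counts. *Cd163*, a scavenger receptor, had 706, 80.9, 16.5, 1992 and 73.4. *Tlr7*, a sensor of single-stranded RNA, had 299.6, 41.8, 11.8, 475 and 2.25. *Siglech*, a lectin of plasmacytoid dendritic cells, had 586, 0, 33.9, 50.5 and 0, with qHSC 1 alone high. *Cd207*, langerin, had 853, 51.1, 7.87, 1157 and 65.2, and *Cd36*, a fatty acid and scavenger receptor, had 221, 3.41, 136, 687 and 131, lowest in qHSC 2.

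Hepatocyte transcripts varied less than macrophage transcripts. Of 24 genes, all tested, 18 were highest in qHSC 1, against 18.5% of all genes tested, and 18 were lowest in qHSC 2, against 18.8%. The summed level was 355467, 146215, 180185, 323774 and 257989 normalized counts, a ratio of 2.43 between the extremes. *Alb*, albumin, had 6989, 2318, 4195, 6172 and 6985 normalized counts. *Apoa1*, an apolipoprotein, had 26553, 8324, 8852, 17580.1 and 16756. *Fabp1*, the liver fatty acid carrier, had 28976, 14817, 28455, 24349 and 15142. In these 3, qHSC 2 was lowest. Of the list 5 genes were variable, against 14.3% of all genes tested, 3 without qHSC 2 and 7 without qHSC 5. *Cyp2e1*, an alcohol-inducible cytochrome, had 13808, 2392, 3130.3, 13117 and 6699. *Cyp3a11*, a cytochrome of drug metabolism, had 1454, 40.9, 1791, 1705 and 1822, so that qHSC 2 alone was low. *Cyp4a10*, a fatty acid hydroxylase outside the list, had 254, 0, 246, 625 and 557, with no read in qHSC 2.

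Markers of sinusoidal endothelial cells were mostly low. Of 20 genes 17 passed the filter and 6 were variable, against 14.3% of all genes tested, and 1 when qHSC 1 and 4 were left out. *Pecam1*, the adhesion molecule CD31, had 83.3, 2.56, 12.6, 199 and 6.74 normalized counts. *Stab2*, a hyaluronan scavenger receptor, had 178, 41.8, 17.3, 282 and 35.2. *Mrc1*, the mannose receptor, which macrophages also carry, had 1164, 228, 172, 2667 and 198. qHSC 4 and 1 were highest in all 3, as for the macrophage list, and the part of these cells in the values was not tested. *Lyve1*, a receptor of sinusoidal and lymphatic endothelium, had at most 6.34. *Ehd3*, a gene of membrane traffic, had 71322, 95536, 33279.9, 61899.6 and 57560.1 normalized counts, more than all other members together in every library. *Bmp2*, a growth factor ligand, had 1316, 1432, 1461, 1114 and 1734, and *Egfl7*, a secreted endothelial factor, had 618, 727, 539, 566 and 619.7, both without the order of the macrophage genes.

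Haemoglobin transcripts had another order. *Hba-a1*, an alpha globin, had 3234, 10283, 2920.1, 15475 and 439.8 normalized counts. *Hba-a2*, its near-identical copy, had 47.2% to 50.4% of those counts in each library. The row of the beta globins *Hbb-b1* and *Hbb-bs* had 866, 4585, 1047, 5784 and 182. qHSC 4 and 2 were high and qHSC 5 was low. All 5 tested erythroid genes were variable (4 without qHSC 5), against 14.3% of all genes tested, and lowest in qHSC 5, against 18.4%.

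Few markers of cholangiocytes (1 of 9), T and NK cells (2 of 9), neutrophils (3 of 9) and mesothelial cells (2 of 7) passed the filter. Over all genes with a symbol, 14561 of 25233 passed. B cell genes (3 of 5) and smooth muscle genes (3 of 6) were near that share. *Nkg7*, of cytotoxic granules, had 5.43, 5.11, 114, 84.7 and 110.2 normalized counts, so that qHSC 3, 4 and 5 were alike and qHSC 1 and 2 near the floor of 3 reads, which is 2.25 to 2.72 normalized counts. *Csf3r*, the receptor of granulocyte colony-stimulating factor, had 125, 5.96, 36.2, 279.8 and 3.75, with qHSC 4 and 1 high. *Cd79a*, of the B cell receptor, had 62.5, 5.11, 14.2, 51.3 and 31.5. Of 10 portal fibroblast genes 5 passed the filter and 2 were variable, against 14.3% of all genes tested. *Dpt*, the matrix protein dermatopontin, had 5054, 2597, 6318, 478 and 660.1 normalized counts and was high in qHSC 1, 2 and 3, whereas *Thy1* and *Gli1* did not pass.

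**Figure D4:**
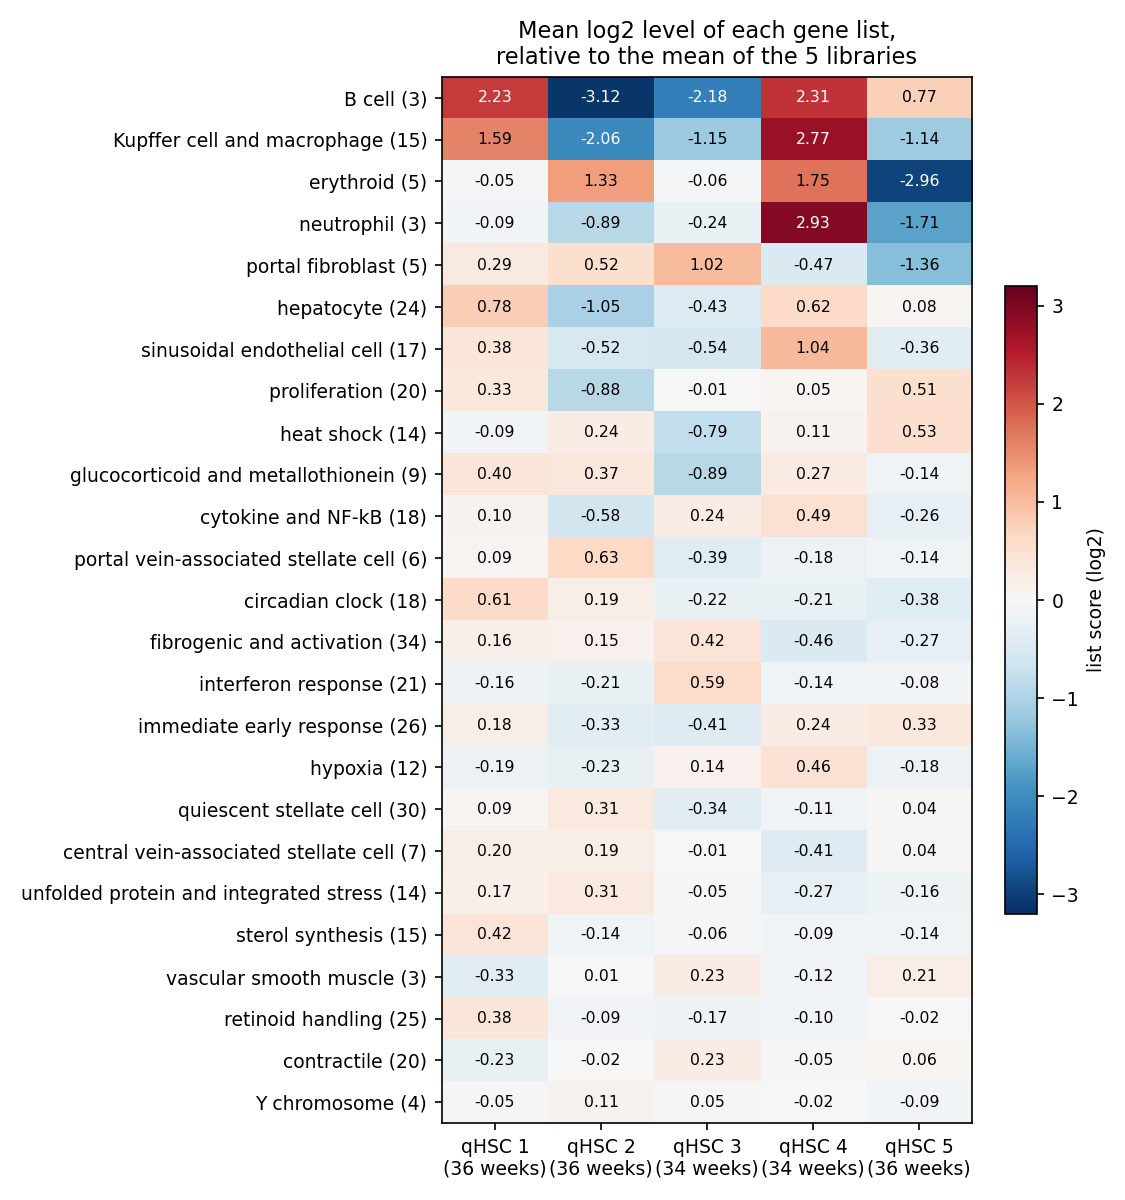
Score of each gene list in each qHSC library, the mean over the tested members (their number in parentheses) of log2(normalized count + 1) minus the mean of the gene over 5 libraries, with red above and blue below 0. The macrophage list runs from -2.06 in qHSC 2 to 2.77 in qHSC 4, and the quiescent stellate cell list from -0.34 in qHSC 3 to 0.31 in qHSC 2.

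qHSC 3 stood apart in interferon-inducible genes. Of 21 genes, all tested, 17 were highest in qHSC 3, against 16.8% of all genes tested. The score of the list, the mean of its log2 values after each gene was centred, was -0.16, -0.21, 0.59, -0.14 and -0.08. *Ifit3*, an antiviral effector, had 36777, 40181, 79994, 36505 and 44302 normalized counts. *Gbp2*, a guanylate-binding protein, had 3441, 3354, 12580.3, 3288 and 3961. In both, qHSC 3 was high and the other libraries were close to each other. *Isg15*, a ubiquitin-like modifier, had 4014, 4769, 9989, 5872 and 6611. *Cxcl10*, a chemokine for T cells, had 1949.5, 1299, 9109.8, 3279.8 and 2591, again highest in qHSC 3. Of the list 2 genes were variable, against 14.3% of all genes tested, 0 without qHSC 2 and 1 without qHSC 3. The macrophage genes were highest in qHSC 4 and not in qHSC 3, and the part of other cells in the interferon values was not tested.

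The promoters of 4 of these genes are shown because they hold the interferon-stimulated response element, spelled GAAANNGAAA or TTTCNNTTTC on the other strand. It was found in 11 of the 16 tested interferon genes that have a promoter in RefSeq, against 3.99% of all 27025 genes with one. Each stretch lies before the start of the gene, from RefSeq GRCm38.p6, 5′ to 3′ on its strand, with matches in capitals. The positions are chr5:92349053-92349139, minus strand (*Cxcl10*), chr3:142620564-142620653, plus strand (*Gbp2*), chr19:34583333-34583456, plus strand (*Ifit3*) and chr4:156200835-156200936, minus strand (*Isg15*, where matches overlap).
Cxcl10: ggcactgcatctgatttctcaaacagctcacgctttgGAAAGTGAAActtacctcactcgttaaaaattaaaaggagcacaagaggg
Gbp2: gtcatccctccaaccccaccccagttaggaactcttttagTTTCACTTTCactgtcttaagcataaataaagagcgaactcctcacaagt
Ifit3: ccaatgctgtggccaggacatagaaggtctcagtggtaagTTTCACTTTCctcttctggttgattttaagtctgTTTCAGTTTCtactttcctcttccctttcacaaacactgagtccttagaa
Isg15: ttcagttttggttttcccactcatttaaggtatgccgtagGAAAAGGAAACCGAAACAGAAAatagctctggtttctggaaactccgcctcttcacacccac
The letters were also found at *Rsad2*, an antiviral enzyme with 521, 295, 454, 362 and 384 normalized counts, for which qHSC 3 was not the highest library.

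Chemokine and cytokine genes varied widely. Of 18 tested genes of the cytokine and NF-kB list, 9 were variable, against 14.3% of all genes tested, 6 without qHSC 2 and 5 without qHSC 3. With a mean of at least 100 it was 3 of 12, against 3.76% of such genes. Of the 18 genes 9 were highest in qHSC 3, against 16.8% of all genes tested, and 5 were lowest there, against 23.9%. The score of the list was 0.10, -0.58, 0.24, 0.49 and -0.26, with qHSC 4 highest, but with a mean of at least 100 the highest library was qHSC 3. *Ccl2*, which attracts monocytes, had 18976, 17034, 99218, 51999 and 69241 normalized counts and ranked 23 of all genes by mean FPKM. *Ccl7*, another attractant of monocytes, had 2173, 1459.5, 14568, 4844 and 5979. For both, qHSC 1 and 2 were low and the other three high, with qHSC 3 highest. Some chemokines outside the list varied as well. *Ccl5*, a chemokine for T cells, had 177, 92, 2539, 483 and 264. *Cxcl9*, which interferon gamma induces and which was named after its values had been seen, had 571, 267, 2569.8, 606 and 596. Both were highest in qHSC 3. *Ccl22*, a chemokine of dendritic cells and macrophages, had 0, 0, 172, 100.1 and 325, highest in qHSC 5 and listed at 0 in qHSC 1 and 2.

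Other members of the cytokine list followed the macrophage genes or no library in particular. *Il1b*, a cytokine of macrophages, had 441, 94.6, 227, 1288 and 136 normalized counts. *Tnf*, another, had 85.1, 17, 86.6, 119.8 and 46.5. Both were highest in qHSC 4 and lowest in qHSC 2, as most macrophage genes were, and the part of these cells was not tested. *Vcam1*, an adhesion molecule, had 4142, 4298, 6493, 3395 and 3066 normalized counts, highest in qHSC 3. *Nfkbia*, the inhibitor of NF-kB, had 6601, 5958, 4232, 5591 and 7435, lowest in qHSC 3.

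Several genes of stellate cell activation were high in qHSC 3. *Timp1*, an inhibitor of matrix metalloproteinases, had 672, 458, 5311, 474 and 693 normalized counts. *Acta2*, smooth muscle actin, had 113, 58.8, 1259, 278 and 324. *Lgals1*, galectin 1, had 15222, 12166, 30478, 12223 and 15071. The highest library exceeded the lowest 11.6-fold for *Timp1*, 21.4-fold for *Acta2* and 2.51-fold for *Lgals1*. *Plat*, tissue plasminogen activator, had 388, 334, 2159, 273 and 156, again with qHSC 3 highest. Most contractile genes did not share the range of *Acta2*: of 20 tested, 2 were variable, *Acta2* and *Lmod1*, against 14.3% of all genes tested. *Myl6*, a myosin light chain, had 29847, 30276, 33027, 29593 and 31526 normalized counts. *Tagln*, an actin-binding protein whose exons overlap *Gm48529* on 66.7% of their bases, had 3006, 3164, 5226, 3728 and 3315.

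Fibrillar collagens separated the libraries in another way. *Col1a1* had 2873, 2977, 4648, 781 and 877 normalized counts. *Col1a2*, the other chain of type I collagen, had 9056, 8888, 10824, 4414 and 4341. *Col3a1*, type III collagen, had 19020.4, 17951, 26445, 9904 and 9599.9. In all 3, qHSC 3 was highest, and qHSC 1, 2 and 3 lay above qHSC 4 and 5, the libraries that were also low in *Dpt*. Of 34 tested fibrogenic and activation genes, 16 were highest in qHSC 3, against 16.8% of all genes tested, and 16 were lowest in qHSC 4, against 22.6%. *Sparc*, a matricellular protein, was even, with 49203, 50379, 51275, 42335 and 44049.8. *Spp1*, osteopontin, had 138, 48.6, 382, 1.71 and 39, with 2 reads in qHSC 4, under the floor. Of the list 4 genes were variable, against 14.3% of all genes tested, 2 without qHSC 3.

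Heat shock genes were low in qHSC 3. Of 14 genes, all tested, 11 were lowest in qHSC 3, against 23.9% of all genes tested, and 10 were highest in qHSC 5, against 24.3%. *Hspa1a*, the inducible HSP70, had 68196, 81336, 6657, 40626 and 116671 normalized counts. *Hspa1b*, a near-identical copy that may share reads with it, had 44.1% to 45.8% of those counts in each library. *Dnajb1*, a co-chaperone of HSP70, had 4201, 5334, 1686, 6314 and 11315. qHSC 3 was the low library in all 3, with the next library 6.1-fold higher for *Hspa1a*. These were the 3 variable genes of the list, against 14.3% of all genes tested, and 0 were variable without qHSC 3. *Hspa8*, the constitutive HSP70, had 107165, 158479, 92286, 187223 and 151317. *Hspa5*, a chaperone of the endoplasmic reticulum, had 211578, 207383, 191222, 246525 and 234599.9, within 1.29-fold.

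Immediate early genes, which cells switch on within minutes of a stimulus, were abundant. *Fos* had 99951, 80012, 44636, 169583 and 117526 normalized counts and ranked 26 of all genes by mean FPKM. *Zfp36*, which destabilizes cytokine transcripts, had 82275, 79794, 36666, 91159.8 and 43053. *Atf3*, a stress-induced transcription factor, had 2806, 1681, 1542, 9045 and 4959. Of 26 genes, all tested, 16 were lowest in qHSC 3, as were these 3, against 23.9% of all genes tested, and 12 were highest in qHSC 4, against 16.1%. Of the list 5 genes were variable, against 14.3% of all genes tested, 3 without qHSC 2 and 3 without qHSC 4. With a mean of at least 100 it was 1 of 21, near the 3.76% of such genes. Glucocorticoid and metallothionein genes were lowest in qHSC 3 in 8 of 9 cases, against 23.9% of all genes tested. *Sgk1*, a kinase that glucocorticoids induce, had 19810.5, 21150.2, 6887, 15638 and 14546 normalized counts. *Zbtb16*, a transcription factor that they also induce, had 833, 687, 105, 376 and 160.3. *Mt1*, metallothionein 1, had 28904, 29886, 16222, 29477 and 25895. *Zbtb16* was low in qHSC 5 as well.

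*Tmem100* and *Id1*, known as targets of BMP signals in other cells, were also lowest in qHSC 3. *Tmem100* had 1584, 2309.9, 166, 1463 and 2182 normalized counts. *Id1* had 3004, 2656, 433, 4905 and 2599. *Id3*, a relative of *Id1*, had 50059, 60604, 39151, 64373 and 61506, within 1.64-fold. *Smad6*, an inhibitor of BMP signals, had 154, 210.4, 268, 192 and 260.0, highest in qHSC 3, so that the BMP-related genes did not share an order. *Id1*, *Id3* and *Smad6* were named after their values had been seen.

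Clock genes were uneven by a different split. Of 18 genes, all tested, 9 were variable, against 14.3% of all genes tested, and 6 without qHSC 2. The median SD was 1.01 against 0.34 for all genes tested. With a mean of at least 100, 3 of 11 clock genes were variable, against 3.76% of such genes. *Nr1d1*, the repressor REV-ERB alpha, had 2811, 5324, 349, 513 and 485 normalized counts. *Nr1d2*, its relative, had 739, 1073, 178, 206 and 204. *Tef*, a transcription factor of the clock output, had 749, 1007, 302, 312 and 98.9. qHSC 2 was highest and qHSC 1 second in all 3, and the same held for *Per2* and *Per3*, repressors of the clock. *Per2* had 63.4, 164, 18.9, 28.2 and 15.7 normalized counts. *Per3* had 499, 698, 278, 128 and 219.5. The exons of *Nr1d1* overlap those of *Thra* on 52.8% of their bases, and the libraries do not keep the strand.

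Genes of the opposite arm of the clock were low in qHSC 2 or in qHSC 1 and 2. *Arntl*, which encodes the activator BMAL1, had 348, 156, 595, 436 and 587 normalized counts. *Nfil3*, a repressor of the clock output, had 44.4, 5.11, 91.3, 58.2 and 117. *Npas2*, an activator, had 88.7, 107, 198, 163 and 157. *Clock* itself was even, with 301, 398, 313, 397 and 310.2. The hour of preparation is not given by the labels, and its part in these values was not tested. The E-box CACGTG was found in the promoters of 5 of 15 tested clock genes and in those of 8.09% of all 27025 genes with a promoter.

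**Figure D5:**
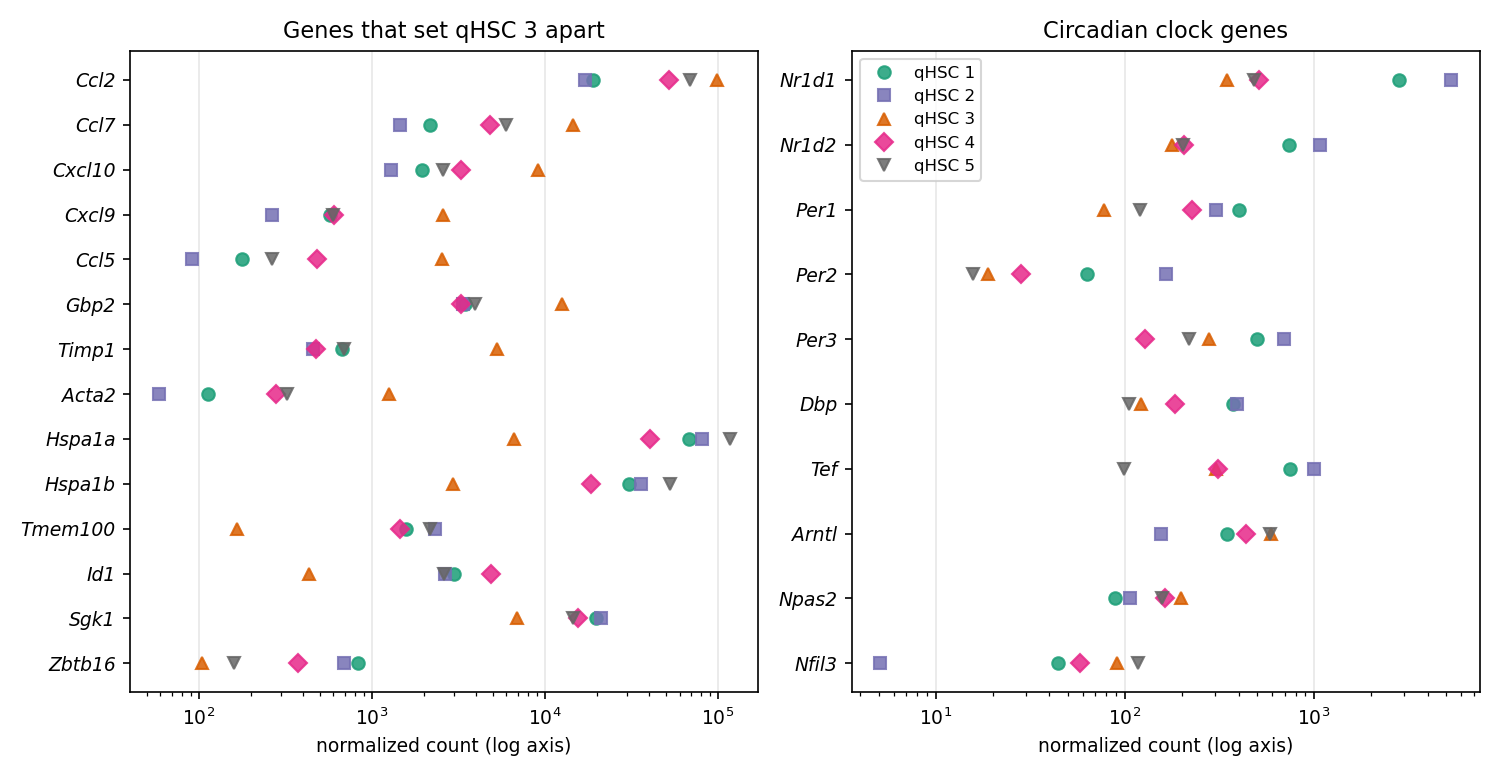
Normalized counts (log axis) of 14 genes that differ in qHSC 3 (left) and of 10 circadian clock genes (right), with 1 marker per library. On the left qHSC 3 is highest from *Ccl2* to *Acta2* and lowest from *Hspa1a* to *Zbtb16*, and on the right *Nr1d1* runs from 349 in qHSC 3 to 5324 in qHSC 2.

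Sterol synthesis and proliferation genes differed in their spread. Of 15 tested sterol synthesis genes 0 were variable, against 14.3% of all genes tested, and 8 were highest in qHSC 1, against 18.5%. Of 20 proliferation genes 4 were variable, against the same 14.3%, and 0 were variable without qHSC 2. In qHSC 2, 13 of them were lowest, against 18.8% of all genes tested. With a mean of at least 100, 3 of 14 proliferation genes were variable, against 3.76% of such genes. *Ccnb2*, a mitotic cyclin, had 162, 22.1, 191, 151 and 183 normalized counts. *Birc5*, an inhibitor of apoptosis that dividing cells express, had 188, 14.5, 109, 188 and 217. *Pcna*, of DNA replication, had 3148, 3359.6, 3600.3, 4646 and 4744. Of 14 genes of the unfolded protein and integrated stress responses 3 were variable, *Trib3*, *Asns* and *Chac1*, all with low counts. Of 12 hypoxia genes 2 were variable, of which 1 was variable without qHSC 2 or without qHSC 4. For both lists the share over all genes tested was 14.3%. *Atf4*, a transcription factor of the integrated stress response, was even, with 4942, 4839, 5031, 4367 and 4834 normalized counts.

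Some genes set single libraries apart. *Saa1*, an acute phase protein, was high in qHSC 1, with 699.6, 187, 140.1, 231 and 39.7 normalized counts. *Abca5*, a lipid transporter, was low in qHSC 1, with 73.3, 358, 387, 298 and 249. *Ackr2*, a chemokine scavenger, was high in qHSC 2, with 55.2, 472, 113, 56.5 and 41.2. None of these is a macrophage marker. In qHSC 3 *Clec4e*, the lectin Mincle, was high, with 18.1, 13.6, 576, 53.9 and 98.9. *Garin4* had no read in qHSC 3, with 532, 258, 0, 241 and 129 normalized counts. *Cxcl13*, a chemokine for B cells, was high in qHSC 4, with 314, 53.7, 135, 1811 and 242. In qHSC 5 *Wnt4*, a Wnt ligand, was high, with 88.7, 89.5, 95.3, 89.8 and 248. *Rrm2*, of nucleotide synthesis, was high there too, with 134, 59.6, 105, 77.9 and 336.

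The genes whose pattern was most like that of *Lrat* over the 5 libraries were *Card6*, *Uaca*, *Zfp628*, *Pigv* and *Thap2*, with a root mean square difference of 0.046 to 0.058 on the centred log2 scale. *Card6* had 241, 266, 194, 169 and 315 normalized counts. *Uaca* had 119, 120.1, 95.3, 83 and 158. All 5 were highest in qHSC 5 and lowest in qHSC 4, as *Lrat* was. This follows from how they were picked, as the closest of the 10352 genes whose mean reached 100.

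Age was compared as 36 weeks (qHSC 1, 2 and 5) against 34 weeks (qHSC 3 and 4), which asks whether the 2 ages among the preparations separate them. In limma, 0 of the 14561 genes passed a log2 fold change of 1 in either direction together with a Benjamini-Hochberg adjusted p of 0.05 (0.00%), and the smallest adjusted p was 0.930. At an unadjusted p under 0.05 there were 602 genes (4.13%). edgeR called 0 genes, with 484 at an unadjusted p under 0.05, and DESeq2 called 5, with 850. An exact two-sided permutation test of a single gene cannot go below p = 0.2, since 3 against 2 libraries have 10 arrangements. Among the genes whose mean reached 100, pairs of the same age had a median of 875.5 genes at least 2-fold apart (642 to 927, 4 pairs) and pairs of different ages 793 (601 to 1014, 6 pairs), so that the ranges overlapped.

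None of the quiescent stellate cell genes passed the test between the ages in limma. Of the 30, 9 were higher at 36 weeks without overlap, against 13.3% of all genes tested, and 0 were lower, against 6.41%. Their median log2 fold change was 0.34 and that of all genes tested 0.06. The 9 were *Dcn*, *Lrat*, *Fcna*, *Bco1*, *Hand2*, *Prelp*, *Lhx2*, *Tcf21* and *Gdf2*. *Lrat* had 112341 to 136938 normalized counts at 36 weeks and 74761 to 90181 at 34 weeks, a log2 fold change of 0.56 (SE 0.20) with an adjusted p of 0.930 in limma. *Dcn* gave 0.33 (SE 0.28) and *Colec10* 0.40 (SE 0.26), with the same adjusted p in limma. Of 18 cytokine and NF-kB genes 5 were lower at 36 weeks without overlap, against 6.41% of all genes tested, and 2 higher, against 13.3%. The ages overlapped for all 15 macrophage genes.

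The 5 genes that DESeq2 called were *Colec12*, *Agbl2*, *Ccl5*, *Trem3* and *Cd6*, named after their values had been seen. *Colec12*, a scavenger receptor, had 1062, 922, 178, 241 and 425 normalized counts. *Agbl2*, a carboxypeptidase that modifies tubulin, had 122, 142, 37.8, 21.4 and 142. *Trem3*, a receptor of myeloid cells, had 0, 4.26, 72.4, 117 and 0. *Colec12* and *Agbl2* were higher at 36 weeks, and *Trem3* and *Ccl5* at 34 weeks, in each case without overlap. *Cd6*, a surface receptor of T cells, had 0, 0, 0, 0 and 106, so that its call rested on qHSC 5 alone.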

How the data were processed

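RNA of qHSCs was sequenced in 5 libraries with a low-input kit that does not keep the strand. Per the labels and the methods of the study, the authors mapped the reads to mm39 with STAR, counted them per gene with featureCounts (Subread 1.5.0) and scaled each column with size factors from DESeq2. The deposited values are this signal per gene, a normalized count on which the size factors of all 10 libraries bear. Multiplying by the size factor gave back the reads, and 100% of the values came out whole within a tolerance of 0.006 normalized counts. The recovered reads gave the depth, the FPKM (with summed GENCODE exon lengths, known for 92.3% of the genes with a symbol), the counting floor of 3 reads and the edgeR and DESeq2 fits. The floor covers counting error only.

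The 14561 genes whose mean over the 5 libraries reached 10 normalized counts were tested. Ages were compared on log2(normalized count + 1) with limma 3.58.1 (with an intensity trend, R 4.3.3) after which p-values were adjusted by Benjamini and Hochberg, and with edgeR 4.0.16 (quasi-likelihood) and DESeq2 1.42.0 as alternatives. On simulated data of 14540 genes with this design, limma recovered 88.7% of the genes changed 4-fold and 36.1% of those changed 2-fold. Recovery at the spread of the qHSC libraries, whose common biological coefficient of variation was 0.431 under edgeR, was not tested. Spread between libraries was described by the SD and the list score with no test. Entries without a symbol, 8.98% to 10.2% of the reads, were left out. The gene lists cover cell types, stellate cell states and processes. Genes named are the markers, members of lists, the top 20 by FPKM, genes among the 20 with the largest and the 10 with the smallest SD, the 5 genes highest and lowest in each library against the nearest other, and the 5 closest to *Lrat*. Members and lists were chosen with earlier results of these data known. Some genes that the rule names are not reported here.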

Additional observations from a re-analysis of the deposited data

Results flagged for a closer look

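For each measure the highest or lowest library was compared with its nearest neighbour relative to the range of the 5 libraries (Dixon's ratio at its 95% critical value), which chance alone would give for about 1 in 20 groups, and 856 of the 14561 genes tested (5.88%) met it. qHSC 5 stood apart in depth, with 47317028 reads on genes with a symbol. Of the list scores, that of retinoid genes stood apart in qHSC 1 (0.38), in which 4 of the 25 were highest, that of sterol synthesis genes in qHSC 1 (0.42) and that of interferon genes in qHSC 3 (0.59). With a mean of at least 100 the retinoid score was highest in qHSC 5 instead, so its place in qHSC 1 rests on genes with low counts.

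Of 170 values examined, 21 met the ratio. Some genes were named for their gap to the nearest library, on which the ratio rests, so their flags are no separate support. Far is meant relative to the range of the 5 libraries. Among the genes whose values are given, qHSC 3 was far above the other libraries for *Gbp2* (12580.3 normalized counts), *Ifit3* (79994), *Lgals1* (30478) and *Timp1* (5311). It was far below them for *Ecm1* (419223), *Id1* (433), *Mt1* (16222), *Tmem100* (166) and *Garin4* (0). qHSC 2 was far below the others for *Birc5* (14.5), *Ccnb2* (22.1), *Cyp3a11* (40.9) and *Cyp4a10* (0). qHSC 5 was far above for *Wnt4* (248) and *Cd6* (106), and qHSC 1 far below for *Abca5* (73.3). *Atf4* met the ratio in qHSC 4 (4367) only because its range was narrow, and it was even between the libraries, as given above. Outside the genes with a symbol, 9971 entries reached a mean of 10 normalized counts in qHSCs and were not analysed here.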

How the results depend on the processing

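The age comparison called 0 genes in limma under every scaling, filter and pseudocount tried and with each library left out, and DESeq2 called 5 (7 without the fold criterion). In DESeq2 the log2 fold changes of the genes called were -3.09 (*Ccl5*), -6.07 (*Trem3*), 1.94 (*Colec12*) and 2.19 (*Agbl2*), and that of *Cd6* has no fixed size because the gene had reads in qHSC 5 alone. In limma that of *Cd6* ran from 0.00 without qHSC 5 to 3.37 without qHSC 1. The number of variable genes, 2079, became 1012 with a pseudocount of 10, 4519 without a filter and 389 with a mean of at least 100, and 1885 to 2050 with each library left out. The median SD of 0.34 became 0.32, 0.43 and 0.26 in the same order, 0.32 to 0.34 with each library left out, and 0.33 without qHSC 1 and 4, an alternative added after the data had been seen. The highest library was kept by 16 of 23 lists with a mean of at least 100, where it became qHSC 5 for the retinoid list and the unfolded protein and integrated stress list, qHSC 4 for immediate early genes, qHSC 3 for cytokine genes, qHSC 2 for clock and hypoxia genes and qHSC 1 for B cell genes. Leaving out qHSC 1 and 4 or a single library cannot change the order of the other scores, so the 12 lists compared without qHSC 1 and 4 are no check. Of the top 20 genes 11 were shared when ranked by normalized count. Genes with low counts carry much of the spread, as the filters show. No paired analysis was possible because the 2 ages share no replicate number.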
